A study of Mus musculus with 10 samples.

Results

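The genes described here are 10 members of the machinery that cuts and stores peptide hormones: the convertase genes Pcsk1 and Pcsk2, their partner genes Pcsk1n and Scg5, the granin and granule cargo genes Scg2, Scg3, Vgf and Resp18, and the end-trimming enzyme genes Cpe and Pam. They were chosen by gene symbol, and all 10 were present among the 20579 genes of the deposited table. RNA had been sequenced from cells sorted for green fluorescent protein driven by the Hopx promoter, taken from intestines of E18.5 mouse embryos on a C57BL6/J / 129S4 background. Both groups thus carry the Hopx reporter, and 5 libraries were labelled p57KO (p57Kip2 knockout) and 5 p57WT (p57Kip2 wild type). Hopx marks slow-cycling crypt cells, and p57Kip2, the product of Cdkn1c, is an inhibitor of cyclin-dependent kinases. Crypts had been broken up mechanically before sorting, and no sorting criterion other than the reporter is described here. The sources used here do not describe the knockout allele. The design names 5 intestines of each genotype but gives no animal identifiers. If libraries were not separate animals, the p-values measure only the spread between these samples.

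Peptide hormones are made as inactive precursors that enter secretory granules. There prohormone convertases cut them after pairs of basic residues, carboxypeptidase E, the product of Cpe, removes the exposed basic residues, and the enzyme encoded by Pam converts a terminal glycine into an amide. Granins are acidic proteins packed into the same granules, where they help granules form and also give rise to peptides of their own. In the gut this machinery is known best from enteroendocrine cells, the hormone-secreting cells of the epithelium, and enteric neurons and pancreatic islets use it as well. Cpe and Pam are also made by cells outside the endocrine and nervous systems.

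Total counts were between 8037887 and 26809231 per library, and the lower depths fell on p57KO 1, p57KO 5 and all p57WT libraries but p57WT 2. Levels are CPM, counts scaled to a common effective library size, and 3 counts, the floor for a gene without reads, corresponded to 0.105 to 0.392 CPM. Cdkn1c, checked first, averaged 0.840 ± 0.764 CPM across the p57KO libraries against 230 ± 129 CPM across the p57WT libraries (SD, n = 5 each), and it matched all 10 labels. Hopx itself was detected in every library, between 60.4 and 199 CPM. Each library's label carries a number of unstated meaning, 607 for p57KO 1, p57KO 2 and p57WT 1, 608 for the other p57KO and 740 for the other p57WT libraries, so only 607 holds both genotypes. Counts on 3 ribosomal RNA repeat features took 0.0301% to 0.435% of p57KO 1 to 4 and p57WT 2, and 9.47% to 17% of the other 5 libraries.

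Marker genes of several cell types differed between the genotypes, and values of the genes described here have to be read beside them. The summed level of 14 enteroendocrine transcription factor genes ranged from 264 to 359 CPM in p57KO and from 25.8 to 135 CPM in p57WT. The 18 epithelial markers together gave 9075 to 17728 against 3082 to 7532 CPM. The sum of 10 smooth muscle markers was 4719 to 32158 against 48571 to 96835 CPM, so smooth muscle RNA was present in every library. Of 10 fibroblast markers 6 were in the table, at 132 to 1265 against 2501 to 8715 CPM. The sums of enteric neuron markers overlapped (14 of 16 in the table, 45.5 to 89.1 against 45.8 to 159 CPM), as did those of enteric glia markers (5 of 8, 54.4 to 112 against 44.8 to 85.1 CPM). Of 11 tested neuron markers, Prph, Uchl1, Stmn2 and Hand2 were lower and Snap25 and Nefm higher in p57KO (edgeR). The called share was 54.5%, against 36.5% of all tested genes. Prph lost its call in 3 and Uchl1 in 2 of the fits with 1 library left out. Hand2 only just did not overlap, at 1.2 to 13.6 against 13.7 to 39.2 CPM, and 12.7% of tested genes were lower without overlap. Myeloid markers (9 of 10 in the table) summed to 209 to 8932 against 28.6 to 150 CPM. In bulk RNA, fewer cells of a type and less RNA per cell cannot be told apart.

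**Figure D1:**
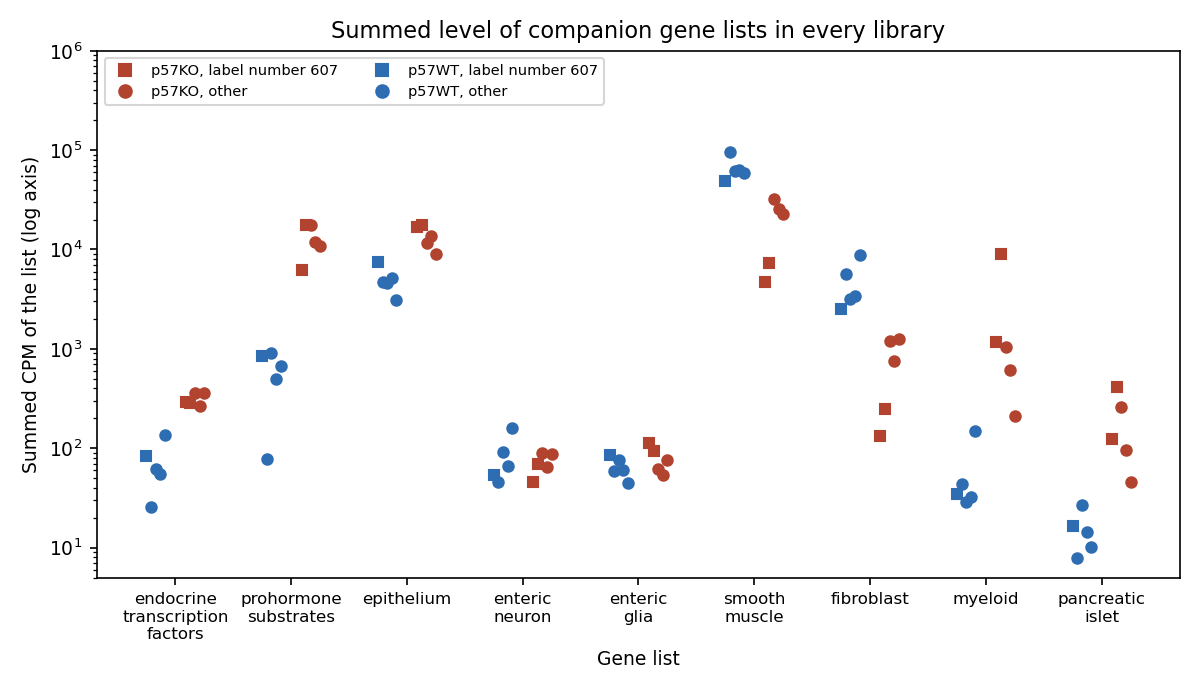
Summed CPM (log axis) of companion gene lists in every library, p57WT in blue and p57KO in red, with squares for label number 607. Endocrine transcription factor, epithelial, substrate, myeloid and islet sums lie higher in all p57KO than in all p57WT libraries, smooth muscle and fibroblast sums lie lower, and the neuron and glia sums overlap.

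Islet markers also differed. Of 8 genes, 6 were in the table, with a summed level of 45.4 to 414 CPM in p57KO and 7.86 to 26.7 CPM in p57WT. Ins2, an insulin gene, was at 216, 188 and 45 CPM in p57KO 2, 3 and 4, at 0.086 and 0.087 CPM in p57KO 1 and 5, and at most 0.911 CPM in p57WT. Ins1 was at 16.9, 41.8 and 24.7 CPM in the same 3 libraries, at 0.774 CPM in p57KO 1, and had 0 counts in p57KO 5 and in all p57WT libraries. Because islets use the same processing genes, the comparison was also made with p57KO 2, 3 and 4 left out, a choice made after these counts were seen.

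Of the 10 genes, 6 were higher and 1 was lower in p57KO at an adjusted p below 0.05, and 3 did not pass (edgeR quasi-likelihood test, Benjamini-Hochberg over 16710 genes; all 10 passed the expression filter). The background was high: 36.5% of all tested genes passed, 19.3% higher and 17.2% lower. The median log2 fold change of the 10 genes was 1.99, against 0.08 over all tested genes. Pcsk1, Scg2, Scg5 and Resp18 did not overlap between the genotypes, with every p57KO library above every p57WT library, and 11.5% of tested genes had that pattern. DESeq2 and limma voom each passed 8 higher and 1 lower, with backgrounds of 38.3% and 38.3%. The authors' deposited table gave 9 of the 10 an adjusted p below 0.05, all but Cpe, and did so for 37.5% of all its genes. Within label number 607, where 6.04% of genes passed, only Pcsk1 and Scg5 did, on 2 p57KO libraries and 1 p57WT library whose spread was taken from the other groups. With p57KO 2, 3 and 4 left out, 4 genes passed as higher and 0 as lower by edgeR (7 and 2 when p was not adjusted), where 9.05% of all genes passed. These 4 were Scg2, Pcsk1, Resp18 and Scg5, the genes whose groups did not overlap. Their CPM was also higher in each of p57KO 2, 3 and 4 than in p57KO 1 and p57KO 5. The same held narrowly for Cpe and not for the other genes. The part of islet RNA in these levels was not tested.

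**Figure D2:**
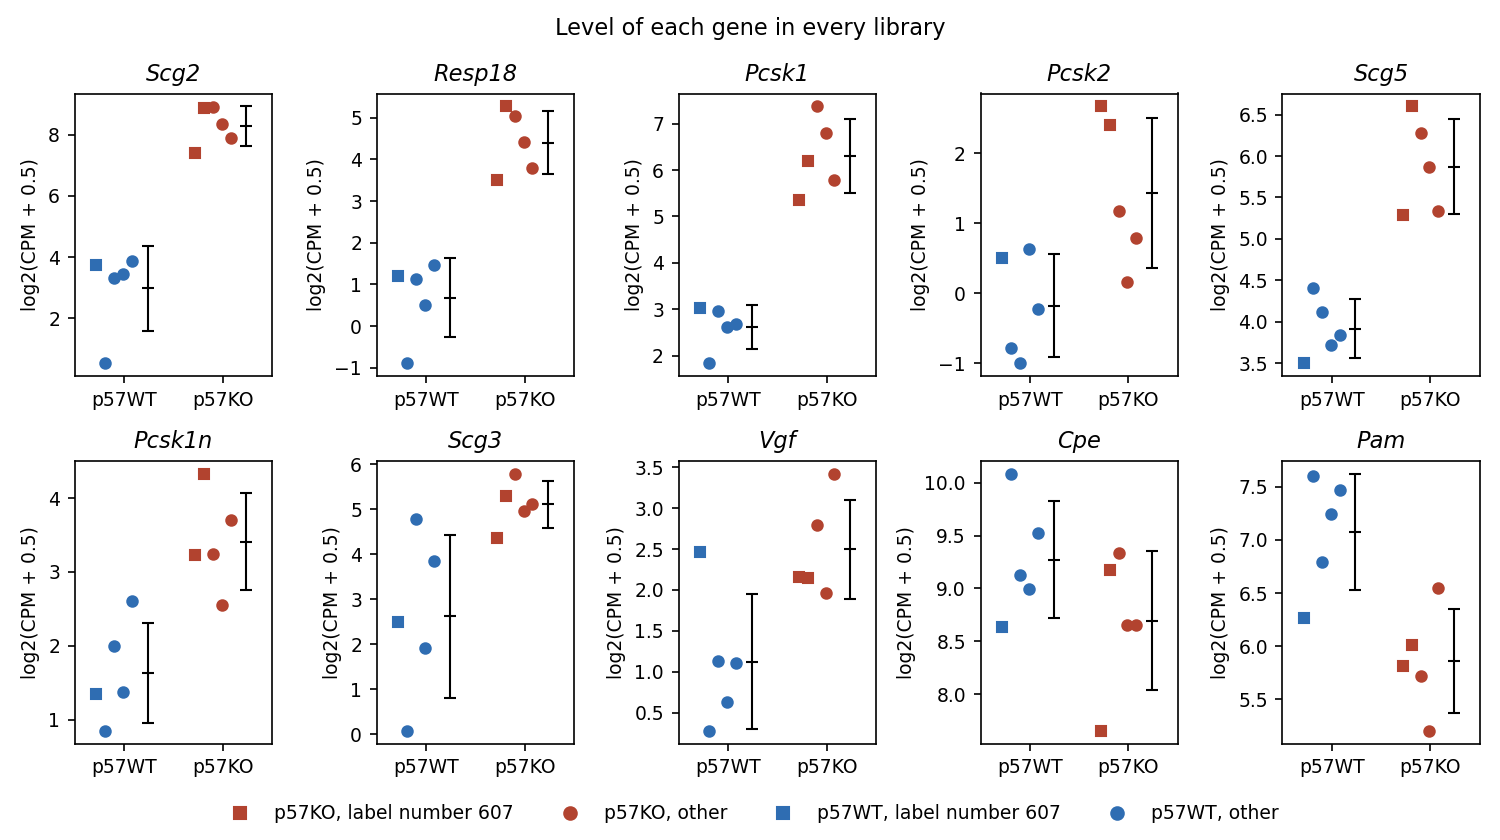
Level of each gene in every library as log2(CPM + 0.5), with the mean and SD (bars) of 5 libraries per genotype and squares for label number 607. Scg2, Resp18, Pcsk1 and Scg5 separate the genotypes completely, the other genes overlap, and p57WT 2 is the lowest p57WT library for Scg2, Resp18, Pcsk1, Pcsk1n, Scg3 and Vgf.

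Pcsk1 encodes the convertase that makes the first cuts in many gut prohormones (ENSMUSG00000021587, chromosome 13, 75089826 to 75134861, plus strand, GRCm38). The p57KO libraries 1 to 5 held 40.2, 73, 165, 111 and 54.8 CPM, against 7.63, 3.08, 7.26, 5.63 and 5.93 CPM for p57WT 1 to 5. The lowest p57KO library was thus above the highest p57WT library, and p57KO 3 was the highest of all. Pcsk1 rose by 3.92 on the log2 scale (SE 0.42, 95% limits 3.02 to 4.83, edgeR adjusted p = 0.000178), about 15.2-fold. It passed under all 20 alternatives, with values from 2.72 to 4.30. Within label number 607 it was at 2.89 (edgeR adjusted p = 0.0407), and without p57KO 2, 3 and 4, the libraries with the most insulin RNA, at 2.98 (edgeR adjusted p = 0.00733).

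Pcsk2 encodes the second convertase of regulated secretion, which acts late and on other sites (ENSMUSG00000027419, chromosome 2, 143546156 to 143816285, plus strand). It had few reads, with 68, 113, 50, 16 and 14 counts in p57KO 1 to 5 and 8, 2, 0, 8 and 3 counts in p57WT 1 to 5. In CPM these spanned 0.614 to 5.85 in p57KO and 0 to 1.05 in p57WT, where the 0 of p57WT 3 allows up to 0.363 CPM by counting error alone. The 2 highest libraries were p57KO 1 and p57KO 2, both of label number 607, and p57KO 4 (0.614 CPM) lay below p57WT 1 (0.911 CPM) and p57WT 4 (1.05 CPM). Pcsk2 rose by 2.64 (SE 0.87, edgeR adjusted p = 0.0309), but this call was fragile. It was lost without any 1 of p57KO 1, p57KO 2, p57WT 2, p57WT 3 or p57WT 5 (edgeR adjusted p from 0.0571 to 0.0713). Within label number 607 Pcsk2 was at 2.53 (edgeR adjusted p = 0.319), and without p57KO 2, 3 and 4 at 2.84 (edgeR adjusted p = 0.11). An antisense gene shares 3.3% of its exon bases and another 1.3%, and their reads cannot be told apart without a known strand setting.

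A pair of partner genes accompanies the convertases, Pcsk1n, whose product proSAAS binds and inhibits the Pcsk1 enzyme, and Scg5, whose product is a chaperone that the Pcsk2 enzyme needs to mature. Pcsk1n (ENSMUSG00000039278, X chromosome, 7919822 to 7924410, plus strand) stood at 8.86, 19.6, 9, 5.37 and 12.5 CPM for p57KO and at 2.05, 1.3, 3.51, 2.09 and 5.57 CPM for p57WT. The groups overlapped narrowly, since p57KO 4 lay just under p57WT 5. Pcsk1n rose by 1.94 (SE 0.47, 95% limits 0.93 to 2.95, edgeR adjusted p = 0.00717). It kept passing when any 1 library was left out (1.64 to 2.32) but not within label number 607 (2.79, edgeR adjusted p = 0.125) nor without p57KO 2, 3 and 4 (1.85, edgeR adjusted p = 0.0607).

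Scg5 (ENSMUSG00000023236, chromosome 2, 113776362 to 113829121, minus strand) stood at 38.6, 96.5, 76.9, 58.1 and 39.8 CPM for p57KO and at 10.8, 20.7, 16.9, 12.7 and 13.8 CPM for p57WT. All p57KO libraries were above all p57WT libraries, and unlike the other granule genes that rose, its highest p57WT library was p57WT 2. Scg5 rose by 2.05 (SE 0.31, 95% limits 1.39 to 2.70, edgeR adjusted p = 0.00063), about 4.13-fold. Within label number 607 it was at 2.64 (edgeR adjusted p = 0.0336), and without p57KO 2, 3 and 4 it was at 1.34 and passed (edgeR adjusted p = 0.0257).

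Because the ratio of a pair of genes in a library does not depend on how the library is scaled, 3 ratios between these genes were compared with exact two-sided permutation tests over libraries. The family held 13 ratios, adjusted together, and the smallest p the design allows is 0.00794. The log2 ratio of Pcsk1n to Pcsk1 was -2.18, -1.90, -4.20, -4.37 and -2.13 in p57KO and -1.87, -1.23, -1.04, -1.40 and -0.09 in p57WT. It was lower in all p57KO libraries, with a difference in means of -1.83 (exact permutation p = 0.00794, adjusted p = 0.0172, n = 5 each). The gap between the groups was small at its nearest point, where p57KO 2 and p57WT 1, both of label number 607, lay at -1.90 and -1.87. Within that number the difference was -0.17, with no test, and the call was lost without any 1 of p57WT 2, p57WT 3 and p57WT 5 (adjusted p = 0.0516, 0.0516 and 0.103).

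The ratio of Pcsk1 to Pcsk2 overlapped between the genotypes, from 2.77 to 7.46 in p57KO and from 2.36 to 6.92 in p57WT, with a difference of 1.01 (exact permutation p = 0.397, adjusted p = 0.61). Likewise the ratio of Scg5 to Pcsk2 ran from 2.71 to 6.52 and from 3.49 to 8.13, with a difference of -0.79 (exact permutation p = 0.516, adjusted p = 0.61). Both ratios rest on the few counts of Pcsk2 and moved from 0.46 to 1.64 and from -1.34 to -0.14 with other counts added before the logarithm. Neither ratio passed, and counting error was not separated from the spread between libraries.

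Scg2 encodes secretogranin II, a granin that is cut into the peptide secretoneurin (ENSMUSG00000050711, chromosome 1, 79434669 to 79440120, minus strand). The p57KO libraries held 167, 468, 475, 326 and 237 CPM, against 12.9, 0.949, 9.44, 10.5 and 14.2 CPM for the p57WT libraries. No library of either genotype came near the other group, and p57WT 2 was far below the other p57WT libraries. Scg2 rose by 5.14 (SE 0.61, 95% limits 3.82 to 6.45, edgeR adjusted p = 0.00025), about 35.2-fold. It was at 4.84 to 5.33 when any 1 library was left out, at 4.37 without p57KO 2, 3 and 4 (edgeR adjusted p = 0.00987), and at 4.63 within label number 607, where it missed the threshold (edgeR adjusted p = 0.0581).

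Resp18, regulated endocrine-specific protein 18, encodes a protein of the secretory pathway of neuroendocrine cells (ENSMUSG00000033061, chromosome 1, 75272199 to 75278415, minus strand). For p57KO the values were 10.9, 38.1, 32.2, 20.7 and 13.3 CPM, and for p57WT 1.82, 0.0395, 1.69, 0.916 and 2.25 CPM. As for Scg2, p57WT 2 was lowest, here with 1 count, and p57KO 1 was the lowest p57KO library. Resp18 rose by 4.16 (SE 0.70, 95% limits 2.66 to 5.66, edgeR adjusted p = 0.00108). It was at 3.16 without p57KO 2, 3 and 4 (edgeR adjusted p = 0.0439) and at 3.75 within label number 607 (edgeR adjusted p = 0.156).

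Scg3 and Vgf leaned higher in p57KO without passing. Scg3, secretogranin III, encodes a granin that tethers other granins to the granule membrane (ENSMUSG00000032181, chromosome 9, 75643189 to 75684056, minus strand). For p57KO the values were 20.2, 38.8, 54.7, 30.6 and 34.2 CPM, and for p57WT 5.12, 0.553, 26.9, 3.27 and 14 CPM. The p57KO libraries were close to each other, whereas the p57WT libraries spread 48.6-fold, from p57WT 2 up to p57WT 3, which lay above p57KO 1. Its log2 fold change was 1.85 (SE 0.70, edgeR adjusted p = 0.0535), and it passed in DESeq2 (adjusted p = 0.0163), in limma voom (3.15, adjusted p = 0.00561) and without any 1 of p57KO 1, p57WT 2 or p57WT 3, the last at 2.67 (edgeR adjusted p = 0.0147).

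Vgf encodes a precursor of several secreted peptides that is best known from neurons (ENSMUSG00000037428, chromosome 5, 137026392 to 137033351, plus strand). For p57KO the values were 3.96, 3.94, 6.44, 3.41 and 10.2 CPM, and for p57WT 5.01, 0.711, 1.69, 1.05 and 1.66 CPM. A single p57WT library, p57WT 1, lay within the p57KO range and the other 4 were below all p57KO libraries. The log2 fold change was 1.47 (SE 0.55, edgeR adjusted p = 0.0505). Without p57WT 1 it was 2.15 and passed (edgeR adjusted p = 0.00862), while within label number 607, where p57WT 1 is the only p57WT library, it turned to -0.34 (edgeR adjusted p = 0.828).

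The promoters of Scg2 and Pcsk1 are shown because they hold a complete cAMP response element, the octamer TGACGTCA bound by CREB family factors, set in capitals. Of the 4 genes that separated the genotypes fully, Resp18 and Scg5 do not hold it in their windows. Each window runs from 250 bases before to 50 bases after the start in RefSeq (GRCm38.p6), 5′ to 3′ on the gene's strand, at chr1:79439977-79440276 (minus) for Scg2 and chr13:75089607-75089906 (plus) for Pcsk1.
Scg2: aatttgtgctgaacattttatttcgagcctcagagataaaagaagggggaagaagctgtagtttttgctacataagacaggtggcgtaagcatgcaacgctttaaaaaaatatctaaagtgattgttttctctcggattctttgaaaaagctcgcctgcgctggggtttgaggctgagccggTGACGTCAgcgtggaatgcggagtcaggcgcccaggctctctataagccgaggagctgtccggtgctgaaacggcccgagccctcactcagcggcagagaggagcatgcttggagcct
Pcsk1: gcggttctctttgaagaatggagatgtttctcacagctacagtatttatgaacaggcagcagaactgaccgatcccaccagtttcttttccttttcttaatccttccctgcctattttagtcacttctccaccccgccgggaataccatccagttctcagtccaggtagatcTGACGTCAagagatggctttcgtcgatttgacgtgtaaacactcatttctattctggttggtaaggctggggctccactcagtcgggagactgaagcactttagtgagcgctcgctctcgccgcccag
The octamer begins at position -68 in Scg2 and -78 in Pcsk1. RefSeq windows were at hand for 8 of the 10 genes (9 windows), and 2 windows held it, against 1.79% of 32851 windows of that length. It reads the same on both strands. Neither TATAAA (13.6% of windows) nor the neuronal repressor element RE1 (0.0122%), each searched on both strands, was found in the 9 windows. These matches describe letters in the reference and were not tested against expression.

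The end-trimming enzyme genes were not higher in p57KO. Cpe (ENSMUSG00000037852, chromosome 8, 64592542 to 64693054, minus strand) stood at 201, 579, 646, 403 and 402 CPM for p57KO and at 397, 1084, 557, 508 and 735 CPM for p57WT. The genotypes overlapped, with p57KO 1 the lowest and p57WT 2 the highest library. Cpe did not pass, at -0.56 on the log2 scale (SE 0.35, edgeR adjusted p = 0.227, 95% limits -1.32 to 0.20), so an increase as large as that of Scg5 lies outside its limits. Pam (ENSMUSG00000026335, chromosome 1, 97795114 to 98095646, minus strand) stood at 55.8, 64.2, 52.2, 36.4 and 93 CPM for p57KO and at 76.4, 194, 110, 151 and 176 CPM for p57WT. Only p57KO 5 and p57WT 1 crossed. Pam fell by 1.23 on the log2 scale (log2 fold change -1.23, SE 0.31, 95% limits -1.89 to -0.58, edgeR adjusted p = 0.00805), and was at -0.35 within label number 607 (edgeR adjusted p = 0.731) and at -0.96 without p57KO 2, 3 and 4 (edgeR adjusted p = 0.143).

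Smooth muscle and fibroblast markers moved in the direction of Pam: all 10 tested smooth muscle markers and 5 of 6 fibroblast markers were lower in p57KO, with medians of -2.35 and -2.42. Over all tested genes 17.2% were lower. With p57KO 2, 3 and 4 left out, the medians were -2.22 and -2.76. Then edgeR passed 1 smooth muscle and 0 fibroblast markers as lower (10 and 5 when p was not adjusted), where 4.37% of all genes were lower. Cpe and Pam were also highest in p57WT 2, the library with the largest smooth muscle sum (96835 CPM) and the smallest endocrine transcription factor sum (25.8 CPM). Other libraries did not keep that order: Pam was lowest in p57KO 4, with a smooth muscle sum of 25722 CPM, and not in p57KO 1, with 4719 CPM. The fibroblast sum was largest in p57WT 5 (8715 CPM) and not in p57WT 2 (5653 CPM). The part of these cell types in the values of Cpe and Pam was not tested.

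**Figure D3:**
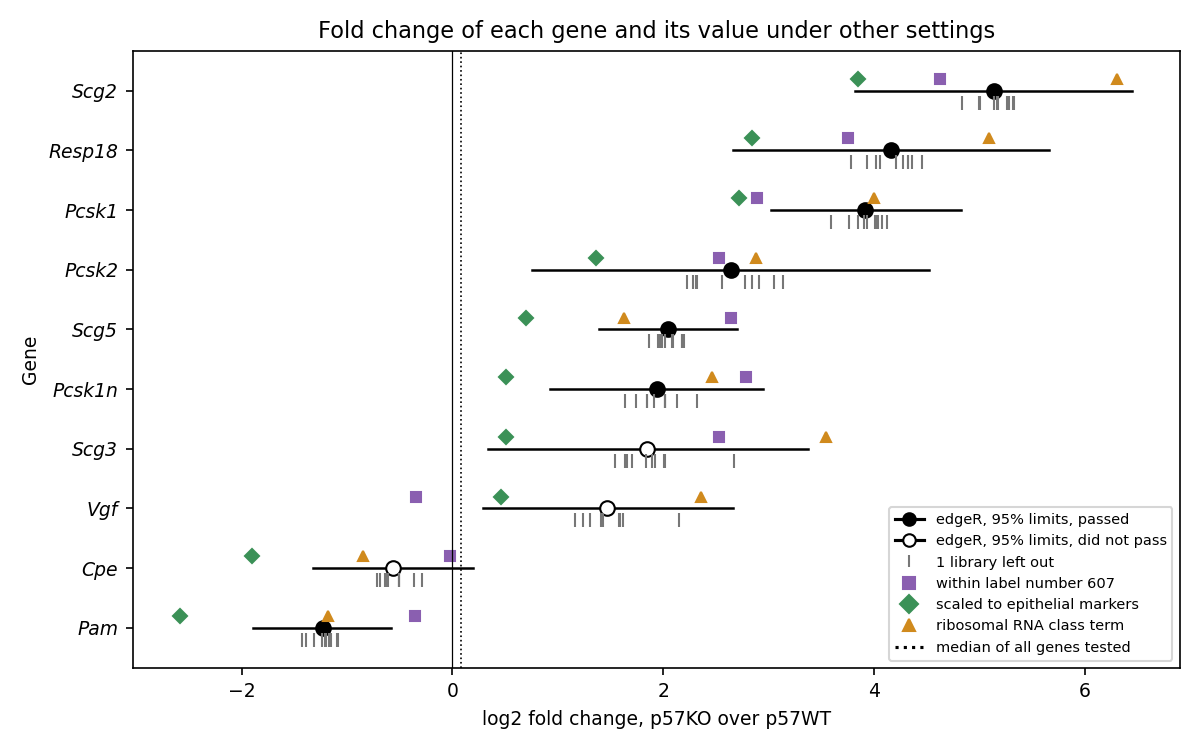
Log2 fold change of each gene, p57KO over p57WT, with 95% limits (filled circles passed, open circles did not), values with 1 library left out (ticks), within label number 607, scaled to epithelial markers and with a ribosomal RNA class term. Scg2, Resp18 and Pcsk1 stay above 2 in every setting shown, Pam stays below 0, and Vgf changes sign within label number 607.

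The scaling of the libraries shifted all genes together. When libraries were scaled to the 18 epithelial markers, the median of all tested genes moved by -1.30 on the log2 scale. Then 62.4% of genes passed, 2.87% higher and 59.6% lower (479 and 9951 genes), so 4.59% of called genes were higher, against 52.8% before. On that scale Scg2 was at 3.85, Resp18 at 2.84 and Pcsk1 at 2.72, and these 3 passed as higher (edgeR adjusted p = 0.000215, 0.00316 and 0.000316). Scg5, Pcsk1n and Pcsk2 were at 0.70, 0.51 and 1.36 and no longer passed (edgeR adjusted p = 0.118, 0.433 and 0.14). Cpe passed as lower at -1.90, as did Pam at -2.58.

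Levels of different genes can be compared only per exon length, as counts scaled by library size and by kilobases of exon (RPKM). In p57KO the order by mean was Cpe at 171, Scg2 at 133, Scg5 at 39.5, Resp18 at 22.3, Pcsk1 at 15.9, Scg3 at 13, Pam at 5.07, Pcsk1n at 5.05, Vgf at 1.88 and Pcsk2 at 0.359 RPKM. Most neighbours kept this order in all 5 p57KO libraries. Pcsk1 was above Scg3 in only 2 of 5, and Pam above Pcsk1n in 4 of 5. Although Pcsk2 was called higher in p57KO, it had the lowest level of the 10 genes there.

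In p57WT the order was Cpe at 252, Pam at 11.9, Scg5 at 9.54, Scg2 at 3.81, Scg3 at 3.64, Pcsk1n at 1.32, Resp18 at 1.3, Pcsk1 at 1.05, Vgf at 0.681 and Pcsk2 at 0.0605 RPKM. Here the neighbours Pam and Scg5, Pcsk1n and Resp18, and Resp18 and Pcsk1 were in this order in 3 of 5 libraries each, so these were not ordered beyond their spread. Cpe stood above every other gene of the set in both genotypes, and Scg2 came next in p57KO, whereas in p57WT it followed Pam and Scg5. Exon length was taken over all annotated transcripts, which lowers the RPKM of genes with long alternative ends such as Pam (11892 bases).

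**Figure D4:**
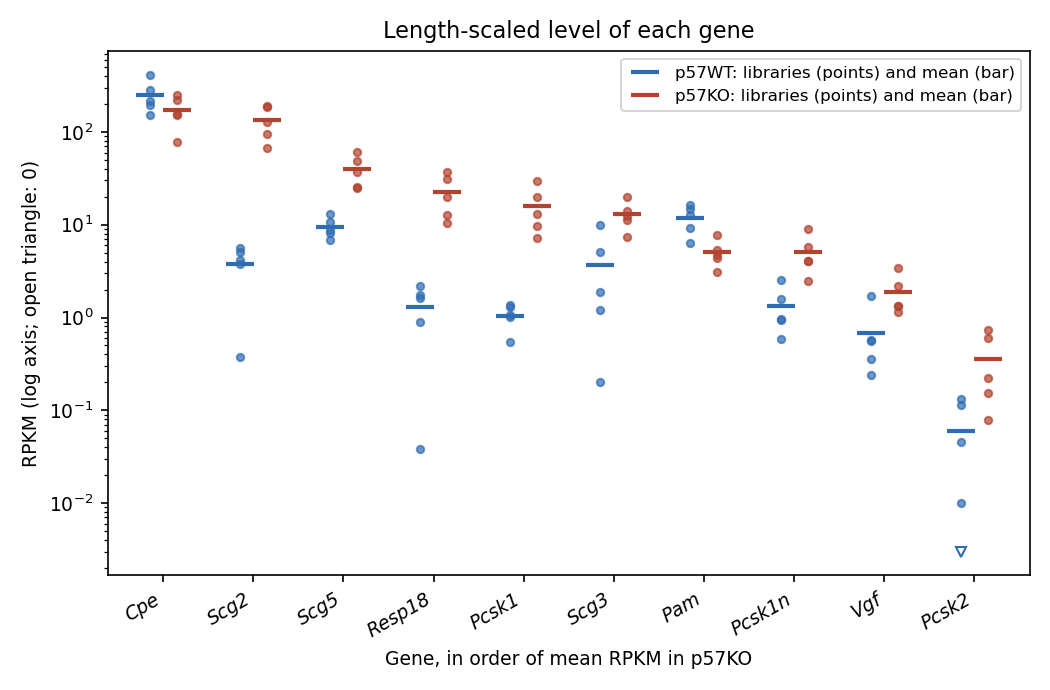
RPKM (log axis) of each gene in every library (points) with the mean of 5 (bars), p57WT in blue and p57KO in red, ordered by the p57KO mean. Cpe is highest and Pcsk2 lowest in both genotypes, and the distance between the genotypes is widest for Scg2, Resp18 and Pcsk1.

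The level of each gene was next set against the geometric mean of 14 enteroendocrine transcription factor genes in the same library. These factors, such as Neurod1 and Isl1, specify hormone cells, and 10 of the 14 rose while 0 fell by edgeR, with a median of 1.97. The counts were 11 and 0 when p was not adjusted, 11 and 0 by DESeq2 and 12 and 0 by limma voom. Over all tested genes 19.3% were higher by edgeR. Scaled to epithelial markers, 5 of the 14 rose and 0 fell, with a median of 0.64, where 2.87% of all genes were higher. Within label number 607 the median of the factors was 1.45. Relative to them Scg2 was higher by 3.36 on the log2 scale in p57KO, Resp18 by 2.51 and Pcsk1 by 1.69, and in each case no library overlapped (exact permutation p = 0.00794 and adjusted p = 0.0172 each, n = 5 per genotype). Pam and Cpe were lower relative to the factors, with differences of -3.31 and -2.67, also without overlap (exact permutation p = 0.00794, adjusted p = 0.0172 each). Within label number 607, with no test, these differences were -1.82 for Pam and -1.68 for Cpe. Cpe itself was at -0.56 and not called in the fit of all genes, while the factors had a median of 1.97. A gene of flat level would thus also lie lower in this ratio. The share of all genes without overlap in this ratio was not counted. For Scg5 the difference was -0.10, for Pcsk1n -0.14, for Vgf -0.46, for Scg3 0.62 and for Pcsk2 0.68, all with overlapping libraries (exact permutation p from 0.317 to 0.865).

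The 3 granule genes that exceeded the factors differed in how closely the groups approached. For Pcsk1 the ratio was 1.47 to 3.16 in p57KO and -0.35 to 1.01 in p57WT. For Scg2 it was 3.57 to 5.00 and -0.70 to 1.72, the widest gap. For Resp18 it was -0.57 to 1.38 and -4.73 to -1.05, with p57WT 2 at the bottom on 1 count. Without p57WT 5 the ratio of Pcsk1 was at 1.45 and lost its call (exact permutation p = 0.0238, adjusted p = 0.0619).

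**Figure D5:**
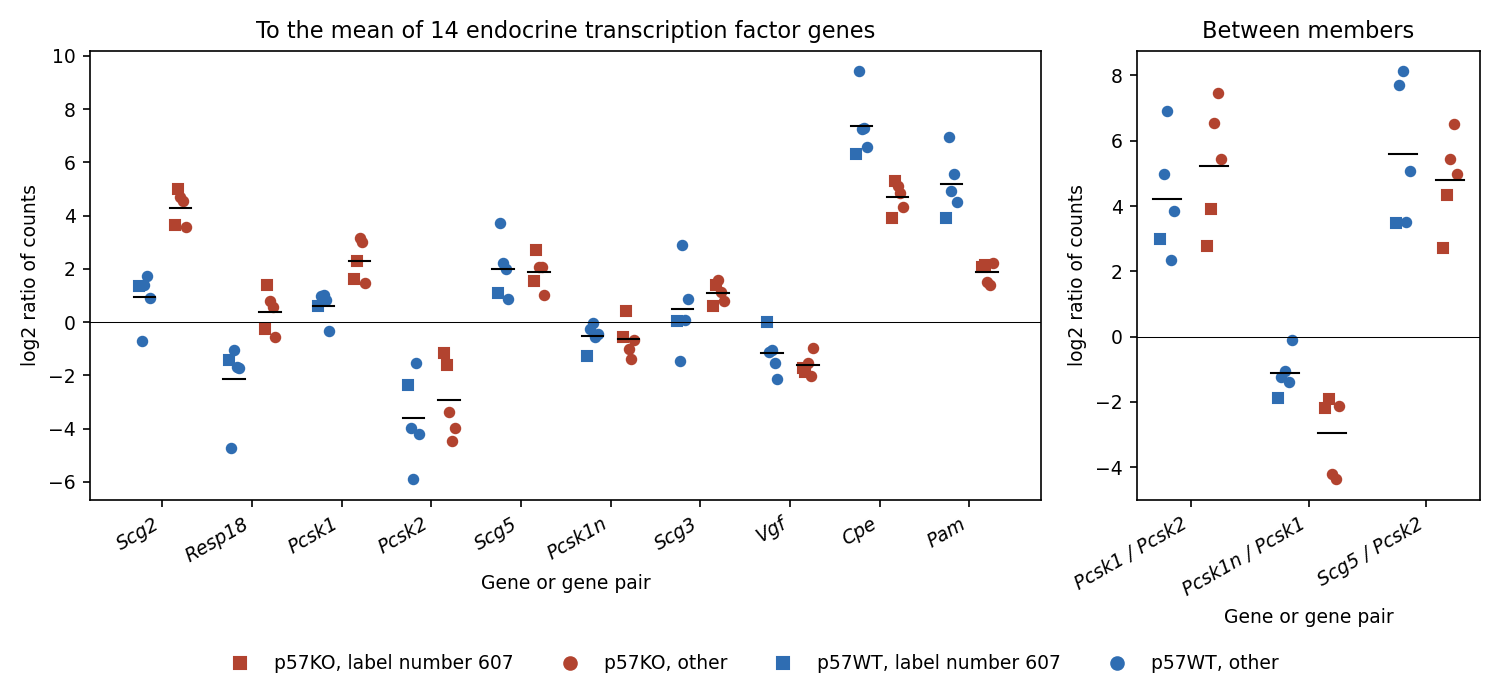
Log2 ratio of counts in every library, of each gene to the geometric mean of 14 endocrine transcription factor genes (left) and between genes of the set (right), with means as bars. Scg2, Resp18 and Pcsk1 lie higher in every p57KO library than in any p57WT library, Cpe, Pam and the ratio of Pcsk1n to Pcsk1 lie lower, and the rest overlap. The transcription factor genes themselves were higher in p57KO, so a gene of flat level also lies lower on the left.

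Other genes of the pathway were taken from lists. Of 7 tested genes of other granule cargo, 4 rose and 1 fell. The called share was 71.4%, against 36.5% of all tested genes. Chga and Chgb, which encode the chromogranins, rose by 3.21 (SE 0.43) and 3.16 (SE 0.36), Scgn, a calcium-binding protein gene, by 3.68 and Sez6l2 by 2.32, while Gnas was at -1.77. Gnas encodes a G protein subunit of all cells and, from another promoter, a granin-like protein, and the counts do not separate them. Within label number 607, 1 of the 7 passed, Chgb at 2.56 (edgeR adjusted p = 0.0297), while Chga, Scgn, Sez6l2 and Gnas did not (edgeR adjusted p = 0.0718, 0.064, 0.233 and 0.27). Gnas was at -0.84 with the ribosomal RNA class as a covariate (edgeR adjusted p = 0.0941) and at -1.05 without p57KO 2, 3 and 4 (edgeR adjusted p = 0.222).

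A list of 7 broadly expressed convertase genes, such as Furin, which works in the constitutive pathway, was also counted. In edgeR 0 of the 7 passed (1 higher and 1 lower when p was not adjusted, 1 and 1 in DESeq2, 0 and 2 in limma voom), and their median was -0.06. Scaled to epithelial markers, 6 of the 7 passed as lower with a median of -1.40. On that scale 59.6% of all genes were lower and the median of all genes was -1.22, so most of this fall is shared by all genes. Of 7 carboxypeptidases and other end-processing genes, Cpm, a membrane carboxypeptidase gene, rose by 2.13, Aebp1 and Cpxm1, which encode carboxypeptidase-like proteins of the matrix, were lower at -2.67 and -2.24, and 4 did not pass. The 3 of 7 called are 42.9%, near the 36.5% of all genes. Cpxm1 turned to 0.34 within label number 607, was at -1.31 without p57WT 5 (edgeR adjusted p = 0.0891), and missed the threshold in limma voom (-1.61, adjusted p = 0.0719) and with the ribosomal RNA class as a covariate (edgeR adjusted p = 0.0798).

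Of 12 tested genes of granule assembly and priming, 5 rose and 1 fell, with a median of 0.85. The called share was 50%, not far above the 36.5% of all tested genes. With p57KO 2, 3 and 4 left out, edgeR passed 2 as higher and 0 as lower, where 9.05% of all genes passed. Within label number 607 the median of the list was 0.77. Hid1, needed for granule maturation, rose by 1.52, Cyb561, the electron carrier that supports the Pam enzyme with ascorbate, by 1.40, Ica1 by 1.54 and Ptprn2, a granule membrane protein gene, by 1.64. Cadps2, a granule priming gene, was lower at -3.26 (SE 1.01). That call was not stable: Cadps2 was at -0.22 with the ribosomal RNA class as a covariate (edgeR adjusted p = 0.918), and it missed the threshold in limma voom (adjusted p = 0.0508), without p57KO 2 (edgeR adjusted p = 0.0505) and without p57WT 4 (edgeR adjusted p = 0.0525). On the epithelial scale, which moved the median of all genes by -1.30, the median of this list was -0.38, with 0 higher and 3 lower in edgeR (0 and 5 when p was not adjusted), where 59.6% of all genes were lower.

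The substrates of the machinery are the prohormones. Of 17 tested prohormone genes, 12 rose and 2 fell, with a median of 3.57, where 19.3% of all tested genes were higher and 17.2% lower. With p57KO 2, 3 and 4 left out, edgeR passed 6 as higher and 1 as lower of 19 tested, where 9.05% of all genes passed. Within label number 607 the median of the list was 2.08. The summed level of the list was 6208 to 17752 CPM in p57KO and 78.3 to 900 CPM in p57WT. Sst, the somatostatin gene, had 4202 to 18366 counts in p57KO libraries and 1 to 3 counts in p57WT libraries. Sct, the secretin gene, rose by 4.78, Cck by 5.51 and Tac1 by 3.21. The 2 that fell were Vip and Calcb. The library with the least substrate RNA was p57WT 2, the same library in which Scg2, Pcsk1, Resp18, Pcsk1n, Scg3 and Vgf were lowest.

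Genes with the most similar course over the 10 libraries were taken as those with the smallest root mean square difference of centred log2 levels. For Scg2 they were Sct (0.34), Rbp4 (0.64) and Cck (0.71), and for Pcsk1 they included Scgn (0.25) and Tubal3 (0.37). Resp18 was nearest to Plcxd3 (0.43), Scgn (0.45) and Pcsk1 (0.51), and the genes near Scg5 included Btnl4 and Atp6ap2 (0.25 and 0.27). Near Vgf were Scn8a and Unc80, which encode ion channel proteins (0.36 and 0.38), and Scg3 had no close companion (Gda at 0.74, Snap25 at 0.74 and Stc2 at 0.76). Pcsk1n ran most like Ntn4 (0.35), and Pcsk2 most like 9630028B13Rik (0.41). Cpe and Pam were nearest to genes of flat or lower level in p57KO, B3gnt5 at 0.15 and Fam110b at 0.23. Within the set, Pcsk1 and Resp18 ran closest (0.51), followed by Cpe and Pam (0.63) and Pcsk1n and Scg5 (0.69). All libraries share these comparisons, so the distances also carry the genotype difference.

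Inside p57KO, the libraries of label numbers 607 and 608 could be compared, although the number's meaning is unknown. By edgeR 6.68% of tested genes differed between them, and none of the 10 genes did (0 of 10; 1 at an unadjusted p below 0.05). That gene was Pcsk2, lower in 608 by a log2 difference of -2.14 (SE 0.89, edgeR adjusted p = 0.166), while Pcsk1 was at 0.97 (SE 0.48, edgeR adjusted p = 0.244). The remaining 8 genes lay between -0.67 and 0.75. Inside p57WT, p57WT 1 could be set against the 4 libraries of 740, where no gene passed by edgeR (0 of 16710, 366 at an unadjusted p below 0.05). The 607 arm is that 1 library, assumed to vary like the other groups. Of the 10 genes only Vgf was among the 366, which restates its high value in p57WT 1.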

How the data were processed

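RNA from 10 libraries of sorted Hopx reporter cells, 5 p57KO and 5 p57WT, was measured by paired-end sequencing. The authors deposited raw counts per gene, a size-factor normalized signal, log2 fold changes, a Wald score and p-values for 20579 genes, per the file headers. Per the submitters' processing notes, the build was mm10 (GRCm38) and the tools included STAR 2.6.1d, HTSeq 1.0 and DESeq2 1.22.2, with Cufflinks 2.2.1, Trim Galore and FastQC. Their roles, the strand setting and the annotation are not given in the sources used here.

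Counts were fitted with edgeR 4.0.16 (R 4.3.3) using TMM scaling, its expression filter (3869 genes removed, 16710 tested) and genotype as the term, after a test on simulated data. Alternatives were DESeq2 1.42.0, limma 3.58.1 (voom), no filter, scaling to epithelial markers, terms for label number, replicate number or ribosomal RNA class, and leaving libraries out. Log ratios used counts plus 0.5. Gene positions and exon lengths came from GENCODE M21 (GRCm38), and promoters from RefSeq. Named companions are called list members, at most 5 per list with the smallest p, plus Chga and Chgb, and the 3 nearest genes of each member, some of which are not reported here. Other named genes (Hopx, Furin, Ins1, Ins2, Stmn2, Vip and Calcb) were chosen after their values were seen. The genes and lists were chosen with earlier results of these data known. Protein sequences were not used here. Replicate libraries all differed by more than sampling noise (chi-square per degree of freedom at least 9.5). Floors describe counting error alone, as reads lacking molecular identifiers can be copies of 1 molecule.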

Additional observations from a re-analysis of the deposited data

Results flagged for a closer look

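The level of Vgf in p57WT 1 was 5.01 CPM, far from the other p57WT libraries, which lay between 0.711 and 1.69 CPM (gap over range 0.77). The log2 ratio of Resp18 to the endocrine transcription factor genes was -4.73 in p57WT 2, against -1.72 to -1.05 in the other p57WT libraries (gap over range 0.82), and rests on 1 count of Resp18. Among 46 groups of 5 libraries examined in this way, chance alone would pick out about 1 in 20.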

How the results depend on the processing

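Scg2, Resp18, Pcsk1, Pcsk1n, Scg5 and Pam kept their direction under all 20 alternatives and passed whenever 1 library was left out. Over all tested genes 4763 to 7141 passed with 1 library left out. The label number term gave the same fit as label number 607 alone, with 1009 genes (183 higher, 826 lower) and 2 of the 10 genes, Pcsk1 and Scg5. Scaled to epithelial markers, 10430 genes passed. With a ribosomal RNA class term 2959 passed (1207 higher, 1752 lower), and 7 of the 10. Without p57KO 2, 3 and 4 together, chosen after seeing the data, 1642 genes and 4 of the 10 passed, on fewer libraries. Turned directions were Vgf at -0.34, Cpxm1 at 0.34, Prph at 0.09, Mfge8 at 0.09 and Unc80 at -0.19 under the label number, and the cause was not tested. On the epithelial scale, which moved the median of all genes by -1.30, Nefm was at -0.00 and Spint1 at -0.08.

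The ratio of Pcsk1n to Pcsk1 was -2.09 to -1.47, that of Pcsk1 to Pcsk2 0.45 to 1.69 and that of Scg5 to Pcsk2 -1.31 to -0.15 with 1 library left out. In label number 607 they were -0.17, 0.36 and 0.03. Relative to the transcription factors, Pcsk1n was -0.40 to 0.05 and Scg5 -0.38 to 0.33 with 1 library left out, above 0 without p57KO 4 for Pcsk1n and without p57KO 5 (0.12) or p57WT 2 for Scg5. In 607 they were 1.19 and 1.03, and Vgf was at -1.81, against -0.46 over all libraries.

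Replicate numbers are shared by the labels only: deviations of same-numbered libraries correlated at 0.23, 0.06, -0.15, -0.15 and 0.17, and not every library matched its own number best. With the replicate block 5804 genes and 8 of the 10 passed. In the paired sign-flip test the ratio of Pcsk1n to Pcsk1 stayed at -1.83, and the smallest p that test allows is 0.0625. Depth limits Pcsk2 most, with 261 counts over the p57KO and 21 over the p57WT libraries.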
